A study of Mus musculus with 8 samples.

Results

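The endocrine pancreas was followed through 10 genes, *Ins1*, *Ins2*, *Gcg*, *Sst*, *Ppy*, *Pyy*, *Iapp*, *Chga*, *Chgb*, and *Slc30a8*, taken by their symbols from the 48709 genes of each RNA-Seq table, and all 10 were present. They encode the islet hormones and the cargo and zinc transporter of the granules that store them. Whole pancreata of male mice aged 8 weeks were collected 24 hours after intraperitoneal saline or after palmitoleic acid (POA) with ethanol, which form fatty acid ethyl esters in the tissue and injure acinar cells (FAEE-SAP). Mice were WT or cKO, *Pfkfb3* fl/fl with Cre driven by the *Pdx1* promoter, with the floxed line made in C57BL/6J, giving 4 groups of 2 libraries. By the paper's methods, WT mice were bought from a vendor (Vital River), so genotype and source of the mice cannot be told apart. WT saline and cKO saline mice received no POA or ethanol, mice were fasted before induction, and buprenorphine was part of the FAEE-SAP protocol. *Pdx1* is active in the progenitors of acinar, duct, and islet cells, so Cre in this line is not restricted to acinar cells.

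Each islet cell type is known by its hormone. Beta cells make insulin (*Ins1* and *Ins2* in the mouse) and cosecrete amylin (*Iapp*), alpha cells make glucagon (*Gcg*), delta cells somatostatin (*Sst*), and PP cells pancreatic polypeptide (*Ppy*), while peptide YY (*Pyy*) is made by several islet cell types and by enteroendocrine cells of the gut. Chromogranins A and B (*Chga* and *Chgb*) help to form dense-core granules in all of these cells, and ZnT8 (*Slc30a8*) loads the insulin granule with the zinc that crystallizes insulin. Islets are a small part of the pancreas, whose RNA is mostly acinar. In a whole-tissue library, fewer cells of a type and less RNA per cell cannot be told apart.

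The promoters of *Ins1*, of the 3 genes that passed the test between genotypes after FAEE-SAP, and of *Ppy*, whose level varied widely between libraries, are shown to let their sequences be set beside their levels. The windows are from RefSeq on GRCm38.p6, 250 bases before to 50 bases after the annotated start, read on the coding strand. *Ins1* lies at chr19:52264047-52264346 (+), *Gcg* at chr2:62483604-62483903 (−), *Sst* at chr16:23890795-23891094 (−), *Iapp* at chr6:142298175-142298474 (+), and *Ppy* at chr11:102101270-102101569 (−). Capitals mark 5 motifs searched on both strands: TATAAA (the TATA box), TAAT (the core bound by homeodomain proteins such as PDX1), CATCTG (an E box), TGCTGA (a core bound by MAF proteins), and TGACG (part of the cAMP response element).
Ins1: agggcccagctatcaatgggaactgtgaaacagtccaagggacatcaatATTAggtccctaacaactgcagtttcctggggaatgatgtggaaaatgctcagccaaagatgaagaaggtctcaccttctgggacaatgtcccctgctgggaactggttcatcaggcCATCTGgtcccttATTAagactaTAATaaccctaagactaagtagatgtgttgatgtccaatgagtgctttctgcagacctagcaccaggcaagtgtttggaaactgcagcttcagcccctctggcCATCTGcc
Gcg: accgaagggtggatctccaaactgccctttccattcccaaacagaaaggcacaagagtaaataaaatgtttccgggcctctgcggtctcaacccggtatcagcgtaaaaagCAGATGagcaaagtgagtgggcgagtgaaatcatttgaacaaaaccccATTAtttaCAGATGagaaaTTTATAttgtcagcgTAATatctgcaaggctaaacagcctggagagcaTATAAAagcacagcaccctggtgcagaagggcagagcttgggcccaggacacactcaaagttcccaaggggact
Sst: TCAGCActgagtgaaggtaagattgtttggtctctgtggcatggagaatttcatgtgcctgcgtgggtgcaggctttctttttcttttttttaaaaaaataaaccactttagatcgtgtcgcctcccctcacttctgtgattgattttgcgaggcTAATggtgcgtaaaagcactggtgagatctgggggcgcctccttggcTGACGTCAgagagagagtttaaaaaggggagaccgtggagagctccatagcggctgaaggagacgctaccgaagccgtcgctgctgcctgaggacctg
Iapp: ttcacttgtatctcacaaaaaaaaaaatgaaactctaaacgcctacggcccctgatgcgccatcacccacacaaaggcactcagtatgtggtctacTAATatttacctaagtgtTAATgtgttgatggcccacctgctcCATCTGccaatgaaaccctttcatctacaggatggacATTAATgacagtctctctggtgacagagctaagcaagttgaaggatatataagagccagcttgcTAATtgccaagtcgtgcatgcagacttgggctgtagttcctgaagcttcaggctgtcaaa
Ppy: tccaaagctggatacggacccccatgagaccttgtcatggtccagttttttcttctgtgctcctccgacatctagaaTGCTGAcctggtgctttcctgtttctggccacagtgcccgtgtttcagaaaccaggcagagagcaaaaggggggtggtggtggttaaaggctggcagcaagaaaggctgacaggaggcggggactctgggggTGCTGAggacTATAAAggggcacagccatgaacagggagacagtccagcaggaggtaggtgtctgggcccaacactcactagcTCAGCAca
The *Gcg* window held TATAAA at −24 from the start, counted as base 0, and CATCTG at −139 and −83 on the opposite strand. *Sst* held TGACG on both strands at −48 and −45, which overlap as a palindrome. *Iapp* held TAAT 5 times, with the matches at −74 and −72 overlapping, and *Ins1* held it 3 times, beside CATCTG at −84 and 42. *Ppy* held TATAAA at −31 and TGCTGA at −173 and −41 and, on the opposite strand, at 42. Of 8 members with a window, 5 held TAAT, and the other 4 motifs were each held by 3. Among 32851 promoter windows of the genome, 58.0% held TAAT, 13.6% held TATAAA, 17.2% held CATCTG, 19.5% held TGCTGA, and 20.8% held TGACG. *Ins2* and *Slc30a8* had no window in the table.

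On the GRCm38 annotation, *Ppy* (chr11:102099930-102101319) and *Pyy* (chr11:102106676-102107832) are neighbours on the minus strand, with 5356 bases between them. *Iapp* (chr6:142298423-142303961, plus strand) lies within the span of *Slco1a5* on the opposite strand, and whether reads were assigned by strand is not given in the sources used here. *Ins1* (chr19:52264297-52265476) and *Ins2* (chr7:142678656-142743381) have near-identical coding sequences, so the division of reads between them is uncertain.

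The deposited values are RPKM, reads per kilobase of exon scaled to the mapped reads of the library, which allow levels to be compared between genes. The whole-number steps of low values gave 22.9 to 37.8 M reads per library. The tables were also scaled by the median of ratios, which sets the typical gene equal between libraries, with factors from 0.621 to 2.02. The WT FAEE-SAP libraries had the highest factors, 2.02 and 1.94. As deposited, the median of all genes was 1.24 higher on the log2 scale after FAEE-SAP in WT and 0.57 higher in cKO, and for cKO against WT it was −0.25 after saline and −0.91 after FAEE-SAP. Every deposited value below is therefore read against these shifts. The 15 acinar genes listed (digestive enzymes and acinar transcription factors) summed to 301174 and 257943 scaled RPKM after saline and 81773 and 85939 after FAEE-SAP in WT, and 348293 and 347843 after saline and 204070 and 227249 after FAEE-SAP in cKO, so acinar RNA differed between the same groups as the islet genes, and its part in the islet results was not tested. The cKO saline 1 library stood apart in gut genes, with *Fabp1* at 12.7, *Apoa4* at 10.7, and *Fabp2* at 8.89 scaled RPKM, where no other library exceeded 0.153 for any of them. Of the gut hormone genes, *Sct* (0.331) and *Gip* (0.124) were also highest in this library, and *Cck*, *Gast*, and *Insl5* were at 0 in all 8 libraries. Among the members, cKO saline 1 had the highest scaled *Sst* (9.40) and the lowest *Ppy* (2.05). Any part of gut RNA in the members' levels there was not tested. *Pfkfb3* itself passed no test between genotypes (scaled RPKM 1.70 and 1.69 in WT saline against 0.880 and 2.10 in cKO saline, and 1.85 and 3.21 in WT FAEE-SAP against 1.74 and 2.82 in cKO FAEE-SAP), but a value over the whole gene does not show the loss of the floxed exons.

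Insulin dominated the islet signal in every group. Averaged over the 8 libraries, scaled RPKM was 160 ± 49.6 (SD, n = 8) for *Ins2* and 76.6 ± 21.3 for *Ins1*, followed by *Iapp* at 30.9 ± 10.5, *Gcg* at 20.6 ± 8.41, *Chga* at 15.3 ± 4.06, *Ppy* at 14.7 ± 7.33, *Sst* at 6.49 ± 2.82, *Pyy* at 3.50 ± 1.1, *Chgb* at 1.12 ± 0.319, and *Slc30a8* at 0.478 ± 0.270. *Iapp* and *Gcg*, as well as *Gcg*, *Chga*, and *Ppy*, were closer to each other than the larger of their spreads over libraries. The 2 insulin genes made up 64.3% to 76.2% of the summed RPKM of the 10 genes. The 10 genes were 0.0349% to 0.0447% of all RPKM in the saline libraries and 0.0759% to 0.0957% in the FAEE-SAP libraries.

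**Figure D1:**
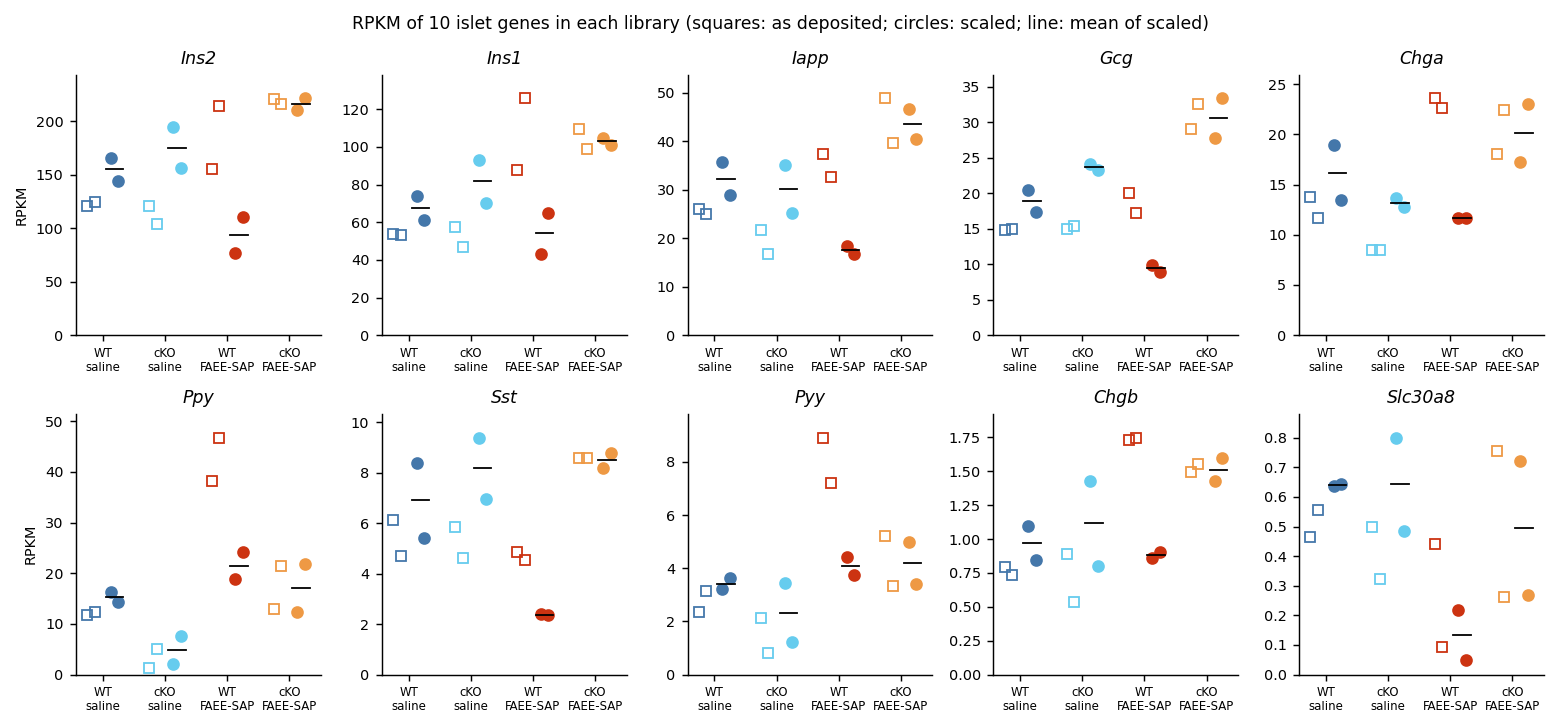
RPKM (y axis, from 0) of the 10 islet genes in the 2 libraries of each group, as deposited (open squares) and after median-of-ratios scaling (filled circles), with a line at the mean of the scaled values. Scaled *Gcg*, *Sst*, and *Iapp* are lowest in WT FAEE-SAP, although deposited *Gcg* and *Iapp* are higher there than in WT saline, and *Ppy* is lowest in cKO saline on both scales.

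FAEE-SAP in WT mice was the comparison in which 2 islet genes fell relative to the typical gene. *Gcg* and *Sst* fell, and *Iapp* was lower by less than the 2-fold minimum. As deposited, by contrast, every member tested other than *Sst* had a higher mean after FAEE-SAP.

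*Gcg*, the glucagon gene, stood at 20.4 and 17.3 scaled RPKM in WT saline and 9.89 and 8.91 in WT FAEE-SAP. The groups did not overlap, and *Gcg* fell by 1.0 ± 0.18 (SE) on the log2 scale (limma with Benjamini-Hochberg adjustment, adjusted p = 0.0344), just past the 2-fold minimum. As deposited it was 14.8 and 15.0 RPKM in WT saline and 20.02 and 17.3 in WT FAEE-SAP, a log2 difference of 0.31 against the shift of 1.24 in the typical gene. *Sst* stood at 8.40 and 5.43 scaled RPKM in WT saline and 2.41 and 2.34 in WT FAEE-SAP, and it fell by 1.48 ± 0.26 on the log2 scale (limma, adjusted p = 0.0326). Its deposited values overlapped, at 6.12 and 4.70 against 4.88 and 4.54 RPKM.

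*Iapp*, the amylin gene, was at 35.6 and 28.8 scaled RPKM in WT saline and 18.5 and 16.8 in WT FAEE-SAP, a log2 difference of −0.87 ± 0.18 (limma, adjusted p = 0.0474). *Ins2* was at 166 and 144 against 76.9 and 110 scaled RPKM, a log2 difference of −0.75 ± 0.22 (limma, adjusted p = 0.0916) that ran from −0.97 to −0.45 with 1 library left out. Both genes were lower without overlap but did not meet both criteria. *Ins1*, at 73.8 and 61.4 against 43.3 and 65.1 scaled RPKM, overlapped between groups. As deposited, *Ins2* was 121 and 125 RPKM in WT saline and 156 and 214 in WT FAEE-SAP, *Ins1* 53.7 and 53.2 against 87.6 and 126, and *Iapp* 25.9 and 24.9 against 37.4 and 32.5.

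The 2 members with higher scaled values after FAEE-SAP in WT were the neighbours *Ppy* and *Pyy*. *Ppy* was at 16.3 and 14.4 scaled RPKM in WT saline and 18.9 and 24.2 in WT FAEE-SAP, a log2 difference of 0.47 ± 0.20 (limma, adjusted p = 0.190). *Pyy* was at 3.22 and 3.62 against 4.40 and 3.73, a log2 difference of 0.24 ± 0.20 that ran from 0.16 to 0.40 with 1 library left out. As deposited, *Ppy* went from 11.8 and 12.4 to 38.2 and 46.8 RPKM, more than the typical gene. Of the chromogranins, *Chga* was at 18.9 and 13.4 against 11.7 and 11.7 scaled RPKM and *Chgb* at 1.1 and 0.848 against 0.857 and 0.904. The zinc transporter *Slc30a8* did not pass the filter on low values in any pairwise comparison and was at 0.639 and 0.643 scaled RPKM in WT saline and 0.219 and 0.0480 in WT FAEE-SAP, the last from about 6 reads.

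Counted together, 2 of the 9 members tested fell and 0 rose, where 3.86% of all genes tested were called lower and 3.08% higher. As deposited, 0 were called lower, where 0.789% of all genes were, and 3 higher (*Ppy*, *Pyy*, and *Chgb*), where 65.9% were. The members' median was −0.45 on the log2 scale, against 0.02 over all genes, and 0.86 as deposited, against 1.24. The scaled median was −0.21 without WT saline 1 and −0.72 without WT saline 2. By non-overlap of scaled values, 5 of the 9 members tested were lower, where 29.1% of all genes were, and 2 were higher, where 29.7% were. As deposited, 8 of the 9 were higher, where 88.9% of all genes were, and 0 lower, where 2.2% were. On either scale the members' median lay below that of all genes. Leaving out WT saline 1, WT FAEE-SAP 1, or WT FAEE-SAP 2 ended both calls, and without WT saline 2 only *Sst* was called. Over 15 alternatives *Gcg* was called lower in 4 and *Sst* in 9, and with the trimmed mean, a pseudocount of 1, no intensity trend, or all 8 libraries in 1 model *Gcg* was not called.

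In cKO mice, no islet gene passed the test after FAEE-SAP, and the fitted difference of each of the 9 tested was positive. *Gcg* was at 24.1 and 23.2 scaled RPKM in cKO saline and 27.7 and 33.4 in cKO FAEE-SAP, a log2 difference of 0.39 ± 0.17 (limma, adjusted p = 0.558). *Ins2* was at 194 and 156 against 211 and 221, *Ins1* at 93.0 and 70.5 against 105 and 101, and *Iapp* at 35.1 and 25.1 against 46.7 and 40.5 scaled RPKM. These 4 genes were higher in cKO FAEE-SAP than in cKO saline without overlap. *Sst* overlapped, at 9.40 and 6.96 against 8.21 and 8.80.

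The largest fitted difference in cKO was that of *Ppy*, at 2.05 and 7.66 scaled RPKM in cKO saline and 12.4 and 21.9 in cKO FAEE-SAP. It came to 2.04 ± 0.66 on the log2 scale (limma, adjusted p = 0.474), with the cKO saline libraries about as far apart as the groups. The low library, cKO saline 1, held about 24 reads of *Ppy* and was the library with gut transcripts, and without it the log2 difference was 1.13. *Pyy* was at 3.45 and 1.21 against 4.99 and 3.42, *Chga* at 13.6 and 12.7 against 17.2 and 23.0, and *Chgb* at 1.43 and 0.804 against 1.43 and 1.60 scaled RPKM. *Slc30a8* was at 0.801 and 0.486 against 0.720 and 0.269. The members' median was 0.47, against −0.01 over all genes, and 1.04 as deposited, against 0.57. The scaled median was 0.29 without cKO saline 2. The background was low, with 0.0531% of all genes called (5 genes, 888 at an unadjusted p under 0.05), while 6 of the 9 members tested were higher without overlap on the scaled values, where 19.6% of all genes were, and 0 lower, where 23.6% were. As deposited, 9 of the 9 were higher, where 75.9% of all genes were, and 0 lower, where 1.1% were.

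Between cKO and WT pancreata after saline, no islet gene passed the test, and 0% of all genes were called (limma, 187 of 8715 at an unadjusted p under 0.05). *Ppy* had the largest difference among the members, −1.93 ± 0.61 on the log2 scale (limma, adjusted p = 0.999), from 16.3 and 14.4 scaled RPKM in WT to 2.05 and 7.66 in cKO. Without cKO saline 1 it was −1.01. *Gcg* was higher without overlap (20.4 and 17.3 against 24.1 and 23.2 scaled RPKM), by 0.30 ± 0.16, on the scaled values only. Thus 1 member was higher without overlap on the scaled values, where 16.3% of all genes were, and 1 lower, where 12% were. As deposited, 0 were higher, where 1.42% of all genes were, and 5 lower (*Ins2*, *Ppy*, *Pyy*, *Iapp*, and *Chga*), where 44.6% were. The members' median was 0.12, against 0.01 over all genes, and −0.13 as deposited, against −0.25. The scaled median was −0.25 without cKO saline 1, 0.30 without cKO saline 2, 0.21 without WT saline 1, and −0.062 without WT saline 2.

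After FAEE-SAP, 3 of the 9 islet genes tested were higher in cKO than in WT pancreata relative to the typical gene. *Sst*, *Gcg*, and *Iapp*, products of delta, alpha, and beta cells, passed the test, and *Ppy* and *Pyy* were the members whose groups overlapped. *Sst* stood at 2.41 and 2.34 scaled RPKM in WT and 8.21 and 8.80 in cKO, 3.48-fold higher (log2 difference 1.80 ± 0.20, limma, adjusted p = 0.0244). *Gcg* stood at 9.89 and 8.91 in WT and 27.7 and 33.4 in cKO, 3.20-fold higher (1.68 ± 0.20, limma, adjusted p = 0.0272). *Iapp* stood at 18.5 and 16.8 in WT and 46.7 and 40.5 in cKO, 2.45-fold higher (1.29 ± 0.18, limma, adjusted p = 0.0410).

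These 3 genes were also higher in cKO as deposited. *Sst* was 4.88 and 4.54 RPKM in WT and 8.59 and 8.58 in cKO, *Gcg* 20.02 and 17.3 against 29.0 and 32.5, and *Iapp* 37.4 and 32.5 against 48.8 and 39.5. Each was without overlap while the median of all genes was −0.91, although the deposited differences of *Sst* (0.85), *Gcg* (0.72), and *Iapp* (0.33) were all under the 2-fold minimum.

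*Ins2* was at 76.9 and 110 scaled RPKM in WT and 211 and 221 in cKO, a log2 difference of 1.22 ± 0.22 (limma, adjusted p = 0.0779), and *Ins1* at 43.3 and 65.1 against 105 and 101, a log2 difference of 0.95 ± 0.24 (limma, adjusted p = 0.13). With 1 library left out, the difference ran from 0.93 to 1.47 for *Ins2* and from 0.63 to 1.23 for *Ins1*. Both insulin genes were higher in cKO without overlap, and the WT libraries differed from each other. *Ins2* was also higher as deposited (156 and 214 against 221 and 216 RPKM), and *Ins1* overlapped (87.6 and 126 against 110 and 98.7). *Chga* (0.76 ± 0.22) and *Chgb* (0.72 ± 0.23) did not pass, and as deposited their log2 differences were −0.20 and −0.18.

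*Ppy* was at 18.9 and 24.2 scaled RPKM in WT and 12.4 and 21.9 in cKO, a log2 difference of −0.38 ± 0.32 (limma, adjusted p = 0.560), which was 0.050 without cKO FAEE-SAP 1, −0.81 without cKO FAEE-SAP 2, −0.59 without WT FAEE-SAP 1, and −0.22 without WT FAEE-SAP 2. As deposited it was 38.2 and 46.8 against 13.0 and 21.3 RPKM and was called lower in cKO, where 39.6% of all genes were. *Pyy* was at 4.40 and 3.73 against 4.99 and 3.42 scaled RPKM, with overlap.

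Among the 9 members tested, 3 were higher in cKO by the test and 0 lower, where 0.863% of all genes were called higher and 0.409% lower. By non-overlap of scaled values, 7 of the 9 were higher, where 26.5% of all genes were, and 0 lower, where 25.3% were. As deposited, 4 were higher (*Ins2*, *Gcg*, *Sst*, and *Iapp*), where 2.37% of all genes were, and 4 lower (*Ppy*, *Pyy*, *Chga*, and *Chgb*), where 81.3% were. *Slc30a8*, not tested, was also without overlap on the scaled values, lower after FAEE-SAP in WT and higher in cKO than in WT after FAEE-SAP. The members' median was 0.95 on the log2 scale against −0.01 over all genes, and −0.01 as deposited against −0.91. Leaving out cKO FAEE-SAP 2, WT FAEE-SAP 1, or WT FAEE-SAP 2 ended all 3 calls, and without cKO FAEE-SAP 1 *Sst* and *Gcg* were called.

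**Figure D2:**
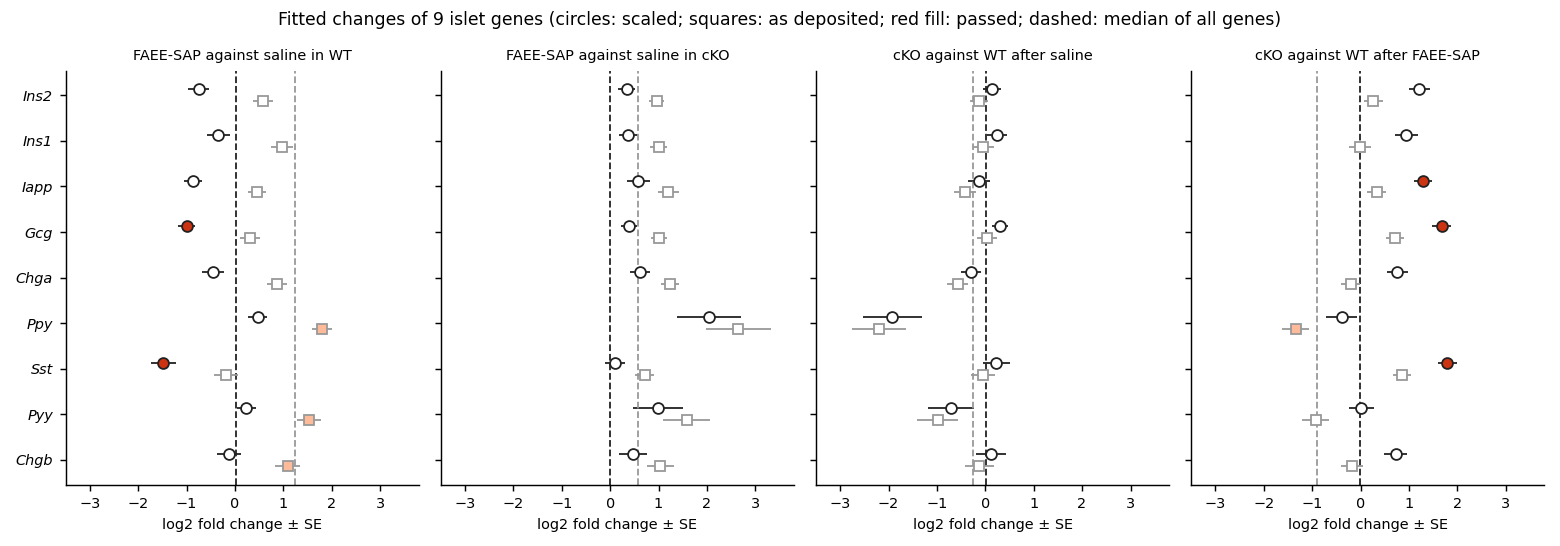
Fitted log2 fold change ± SE (x axis) of the 9 members tested in each pairwise comparison, from scaled RPKM (circles) and from RPKM as deposited (squares), with filled symbols past an adjusted p of 0.05 and 2-fold and dashed lines at the median of all genes. On the scaled values, *Gcg* and *Sst* pass in WT (lower, though as deposited *Gcg* is 0.31 higher). *Gcg*, *Sst*, and *Iapp* pass between genotypes after FAEE-SAP (higher on both scales, but not passing as deposited). As deposited, *Ppy*, *Pyy*, and *Chgb* pass in WT (higher) and *Ppy* passes between genotypes after FAEE-SAP (lower).

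The treatment response was then compared between genotypes. The interaction, the cKO response minus the WT response, was positive for all 10 members on the scaled values, with a median of 1.21 against 0.02 over all genes. None was called, where 0.0719% of all genes were (8 genes, 1398 at an unadjusted p under 0.05). The values nearest the threshold were those of *Gcg* (1.36 ± 0.24, limma, adjusted p = 0.143), *Iapp* (1.41 ± 0.30, limma, adjusted p = 0.175), and *Sst* (1.54 ± 0.35, limma, adjusted p = 0.197). As deposited, *Chgb* was at −0.05 and the other 9 were positive, with a median of 0.54 against −0.63 over all genes. A positive interaction was not particular to the members. On the scaled values all 15 acinar genes (median 1.08) and all 10 listed endothelial and stromal genes (0.39) were positive. All 7 adipocyte genes tested were negative (−1.04). By non-overlap of scaled values, 4 of the 10 members (*Ins2*, *Gcg*, *Iapp*, and *Chga*) were lower than saline in WT and higher in cKO, where 2.36% of all genes were, and 0 were higher in WT and lower in cKO, where 3.31% were. As deposited, 0 members had either pattern, where 0.404% and 0.305% of all genes did. The comparisons above share libraries, so the WT response, the cKO response, and the difference between genotypes are not separate observations.

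Ratios within a library do not depend on scaling and give the makeup of the islet signal. Relative to *Ins2* RPKM in the same library, *Gcg* was 12.3% and 12.04% after saline and 12.9% and 8.07% after FAEE-SAP in WT, and 12.4% and 14.9% after saline and 13.2% and 15.1% after FAEE-SAP in cKO. *Ins1* was 42.6% to 58.9% of *Ins2* over the 8 libraries and *Iapp* 15.2% to 24.0%. *Sst* was 5.06% and 3.77% after saline and 3.13% and 2.12% after FAEE-SAP in WT, and 4.83% and 4.45% after saline and 3.89% and 3.97% after FAEE-SAP in cKO. The WT FAEE-SAP libraries were thus the lowest for *Sst*.

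*Ppy* varied widely between libraries. It was 9.80% and 9.98% of *Ins2* after saline and 24.5% and 21.9% after FAEE-SAP in WT, and 1.05% and 4.90% after saline and 5.88% and 9.88% after FAEE-SAP in cKO. Its deposited RPKM spanned 36.8-fold over the 8 libraries, against 1.89-fold for *Sst* and 2.12-fold for *Ins2*, and its scaled RPKM 11.8-fold, against 4.01-fold for *Sst*, 2.88-fold for *Ins2*, and 16.7-fold for *Slc30a8*. Without cKO saline 1, the library with gut transcripts, deposited *Ppy* spanned 9.18-fold, and *Pyy* spanned 11.04-fold. Within each treatment, both cKO libraries had less *Ppy* per *Ins2* than both WT libraries, but cKO FAEE-SAP 2 (9.88%) lay above WT saline 1 (9.80%). Over both treatments, the difference of cKO from WT was −1.83 on the log2 scale (0.281-fold, n = 4 against 4, two-sided exact permutation p = 0.0571, adjusted p = 0.171 over 12 ratio tests), and −1.19 without cKO saline 1. *Pyy* followed the same order of groups, at 1.94% and 2.51% after saline and 5.73% and 3.37% after FAEE-SAP in WT, against 1.77% and 0.777% and then 2.37% and 1.54% in cKO, and the difference of cKO from WT was −1.02 (exact permutation p = 0.0571, adjusted p = 0.171). *Gcg* relative to *Ins2* differed by 0.31, with the same exact p, and by 0.16 without WT FAEE-SAP 2. By treatment, the ratio of *Ppy* differed by 1.45 (exact permutation p = 0.143), and by 0.75 without cKO saline 1. That of *Sst* differed by −0.50 (exact permutation p = 0.0857), and by −0.31 without WT FAEE-SAP 2, while that of *Ins1* differed by 0.22 (exact permutation p = 0.0571). None of the 12 ratio tests passed after adjustment, and the smallest p that 4 against 4 libraries can give is 0.0286.

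**Figure D3:**
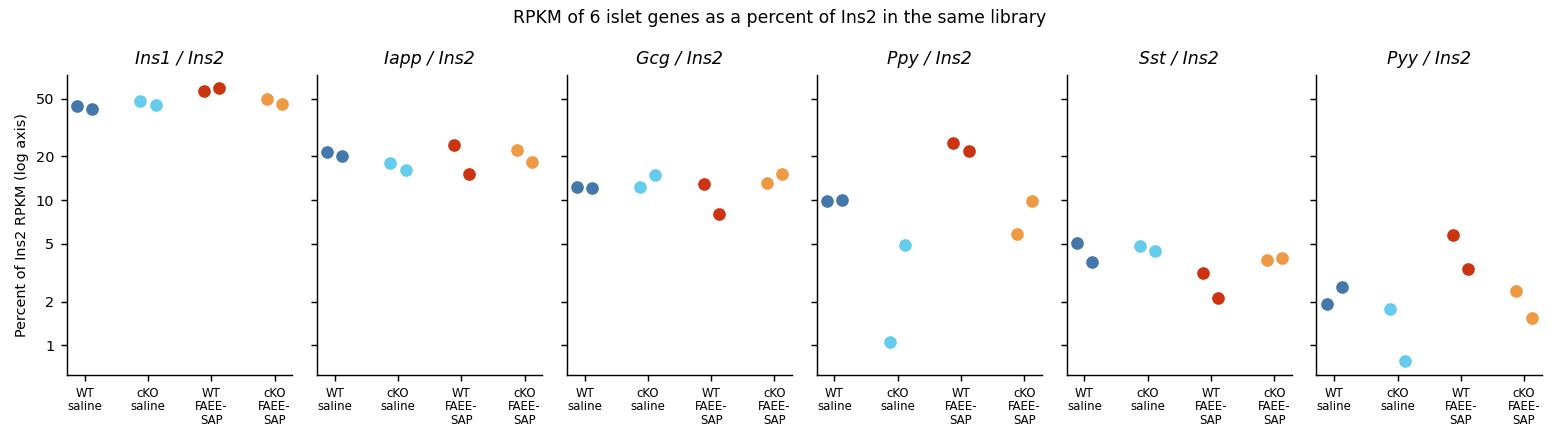
RPKM of 6 islet genes as a percent of *Ins2* RPKM in the same library (log axis), 1 point per library in the 4 groups. *Ins1* lies between 42.6% and 58.9% and *Iapp* between 15.2% and 24.0%, *Ppy* spans 1.05% to 24.5%, and *Sst* is lowest in the WT FAEE-SAP libraries, at 3.13% and 2.12%.

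The levels of most members ran alike over the libraries. On the log2 scaled values, Pearson's r over the 8 libraries was 0.95 for *Ins1* with *Ins2* and for *Gcg* with *Sst*, and 0.90 to 0.91 for *Iapp* with *Ins2*, *Gcg*, and *Sst*. *Ppy* ran against them, at −0.36 with *Ins2*, −0.37 with *Gcg*, and −0.50 with *Sst*, and only 0.27 with *Pyy*. Over the 45 pairs the median was 0.68. These are descriptions of 8 libraries that share groups and scaling. With 2 libraries a group, the deviations from the group means hold 4 independent values. After group means were removed the median was 0.31, *Ins1* with *Ins2* remained at 0.98, *Gcg* with *Chga* at 0.91, and *Ppy* with *Pyy* stood at −0.998.

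Of 11123 other genes, the one whose profile was most like the members' mean was *Pcsk2* (r = 0.98 over 8 libraries), which encodes prohormone convertase 2, the enzyme that cleaves proglucagon and proinsulin. It was at 1.05 and 0.833 scaled RPKM after saline and 0.474 and 0.443 after FAEE-SAP in WT, and 0.938 and 0.611 after saline and 1.09 and 1.28 after FAEE-SAP in cKO. *Dut* (0.98), a nucleotide hydrolase, and *Hhex* (0.96), a transcription factor of delta cells in the islet, came next. They were followed by *Pmp22*, *Rsrc1*, *C2cd5*, *Ssx2ip*, *Opa1*, *Akr1b10*, and *Rwdd4a* (0.94 to 0.96). With group means removed, r was 0.91 for *Pcsk2*, 0.94 for *Dut*, 0.85 for *Hhex*, and 0.22 to 0.95 for the other 7.

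The machinery that makes and stores the hormones was read from lists of genes that hold none of the 10 members. In the list for prohormone processing and the dense-core granule, 18 of 26 genes were tested in WT, and 3 fell after FAEE-SAP, where 3.86% of all genes were called lower, and 0 rose, where 3.08% were called higher. They were *Ero1lb*, a disulfide oxidase of the endoplasmic reticulum that is also abundant in acinar cells (76.2 and 69.8 against 9.33 and 6.95 scaled RPKM, a log2 difference of −3.17 ± 0.20), *Ptprn2*, a granule membrane phosphatase (4.48 and 4.43 against 1.32 and 1.27, −1.73 ± 0.19), and *Rab3a*, a GTPase of exocytosis (1.5 and 0.968 against 0.406 and 0.269, −1.65 ± 0.33). The list's median was −0.47 against 0.02 over all genes, and as deposited it was 0.74 against 1.24, with 5 genes called higher, where 65.9% of all genes were, and 1 lower, where 0.789% were. *Ero1lb* was called without each library in turn, while the call of *Ptprn2* ended without WT saline 1 or WT FAEE-SAP 2 and that of *Rab3a* without WT saline 1, WT FAEE-SAP 1, or WT FAEE-SAP 2. The *Rab3a* call also ended as deposited and with no filter, a pseudocount of 1, or the replicate number as a block. Between genotypes after FAEE-SAP, 3 of 17 tested were higher in cKO and 0 lower, where 0.863% of all genes were called higher: *Ero1lb* (37.9 and 47.6 in cKO, 2.38 ± 0.23), *Ptprn2* (3.96 and 4.93, 1.71 ± 0.23), and the granin *Scg3* (0.757 and 0.730 in WT against 2.32 and 2.18, 1.5 ± 0.22). The list's median was 0.74 against −0.01, and as deposited it was −0.11 against −0.91, with 1 gene called higher, where 0.663% of all genes were, and 1 lower, where 39.6% were. Without WT FAEE-SAP 1, without WT FAEE-SAP 2, or with no filter, 0 of all genes were called between genotypes (limma, 1801, 954, and 2820 at an unadjusted p under 0.05), so the calls of every list ended, and those of *Ptprn2* and *Scg3* also ended without either cKO library. With no intensity trend the calls of *Ptprn2* and *Scg3* between genotypes ended too, and that of *Scg3* ended with a pseudocount of 1. On the scaled values no gene of the list was called in the other comparisons, and as deposited 1 was called higher in the interaction, where 0.189% of all genes were. *Cpe*, the carboxypeptidase that trims prohormones, was at 13.4 and 12.4 after saline and 8.43 and 8.75 after FAEE-SAP in WT, and 12.3 and 12.8 after saline and 14.0 and 13.2 after FAEE-SAP in cKO, and it did not pass.

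The largest fitted difference of the islet lists in WT was that of *Gal*. Of the list for alpha, delta, PP, and epsilon cells, 3 of 8 tested fell after FAEE-SAP in WT, where 3.86% of all genes were called lower, and 0 rose, where 3.08% were called higher. *Gal*, the galanin gene, was at 65.7 and 58.8 scaled RPKM in WT saline and 4.93 and 5.70 in WT FAEE-SAP (−3.54 ± 0.18), at 72.7 and 75.5 in cKO saline, and at 37.7 and 32.1 in cKO FAEE-SAP. It was the gene of these islet lists called in the interaction (2.44 ± 0.23, limma, adjusted p = 0.0380), a call that ended when any of the 8 libraries was left out and with no filter, a pseudocount of 0.01, no intensity trend, or the replicate block (adjusted p 0.0342 to 0.185 over 17 alternatives, with differences of 2.26 to 2.55 on the scaled values and 1.79 as deposited). It was also higher in cKO than in WT after FAEE-SAP (2.69 ± 0.20). *Ttr*, transthyretin, fell in WT from 6.95 and 7.52 to 0.848 and 1.26 (−2.72 ± 0.25) and was higher in cKO than in WT after FAEE-SAP, at 4.32 and 4.03 (1.93 ± 0.26), a call that ended without any 1 of the 4 libraries. *Slc7a2*, a transporter of arginine, fell in WT (1.79 and 1.86 to 0.434 and 0.529, −1.78 ± 0.23), and its call ended without WT saline 1, WT FAEE-SAP 1, or WT FAEE-SAP 2. As deposited, 2 genes of the list were called lower in WT, where 0.789% of all genes were, and 2 higher, where 65.9% were. Between genotypes after FAEE-SAP, 2 were called higher as deposited, where 0.663% of all genes were. In the interaction 2 were called higher as deposited, where 0.189% were, while on the scaled values *Gal* was the only one. The ghrelin gene *Ghrl* was at or near 0 in every library, no higher than 0.217 scaled RPKM. In the saline libraries *Gal* was above every member other than the insulin genes, and its cell of origin was not tested.

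Genes that couple glucose to insulin secretion were mostly low. In the beta cell list 7 of 20 were tested in WT, and *Glp1r*, the receptor for the incretin GLP-1, fell (5.49 and 4.995 to 1.78 and 0.576 scaled RPKM, −2.28 ± 0.48, limma, adjusted p = 0.0471), where 3.86% of all genes were called lower, while 0 rose, where 3.08% were called higher. The call ended without WT saline 1, WT saline 2, or WT FAEE-SAP 2, and as deposited 0 genes of the list were called lower, where 0.789% of all genes were, and 3 higher, where 65.9% were. The *Glp1r* call also ended with no filter, a pseudocount of 0.01, or no intensity trend. *Glp1r* was at 4.18 and 6.63 in cKO saline and 6.504 and 3.07 in cKO FAEE-SAP. No gene of this list passed in any other comparison. Of 22 islet transcription factors, 5 were tested in WT and 0 passed in any comparison on the scaled values, while 2 were called higher in WT as deposited, where 65.9% of all genes were. *Pdx1* was at 0.942 and 0.705 after saline and 0.479 and 0.468 after FAEE-SAP in WT, and 1.56 and 0.821 after saline and 0.818 and 0.737 after FAEE-SAP in cKO.

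**Figure D4:**
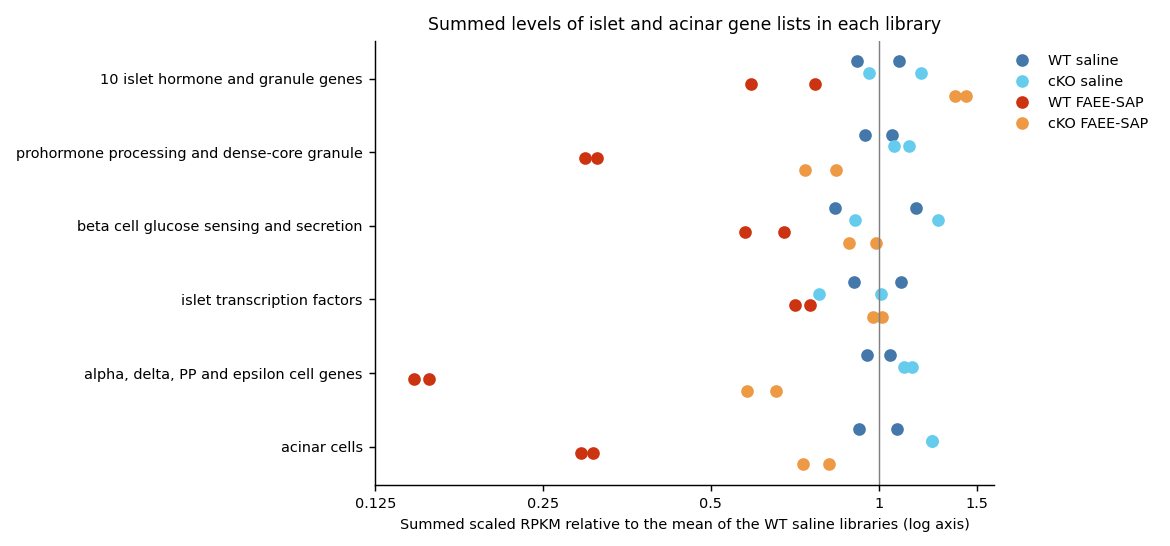
Summed scaled RPKM of the 10 members, of 4 lists of other islet genes, and of 15 acinar genes, relative to the mean of the WT saline libraries (log axis), 1 point per library. The WT FAEE-SAP libraries lie lowest in every list, from 81773 and 85939 scaled RPKM for acinar genes to 187 and 244 for the members, and the members alone are highest in cKO FAEE-SAP, at 435 and 455. On deposited RPKM the members sum higher after FAEE-SAP in WT as well. Single genes carry much of some list sums. In WT saline 1, *Ero1lb* is 76.2 of 119 scaled RPKM in the granule list. *Gal* is 65.7 of 81.6 in the alpha, delta, PP, and epsilon list of the same library.

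Acinar genes fell in WT with a larger median than the members. There, 14 of 15 acinar genes fell after FAEE-SAP, where 3.86% of all genes were called lower, with a median of −2.0, against −0.45 for the members, and between genotypes after FAEE-SAP 9 of 15 were higher in cKO, where 0.863% of all genes were, with a median of 1.28, against 0.95. As deposited, 3 acinar genes were called lower in WT, where 0.789% of all genes were (median −0.68), and 1 higher between genotypes, where 0.663% were (median 0.33). The largest in both were those of the acinar transcription factor *Bhlha15* (−3.47 in WT and 2.91 between genotypes) and the digestive enzyme *Cpb1* (−2.48 and 1.85). In cKO, the acinar median after FAEE-SAP was −0.81 with 0 called, where the members' median was 0.47. In WT, where 3.08% of all genes were called higher, 2 of 8 duct genes rose (*Epcam*, 2.16, and *Spp1*, 1.79), 3 of 8 myeloid genes rose (*S100a8*, 5.88, *S100a9*, 5.15, and *Cd14*, 3.39), and 3 of 7 adipocyte genes rose (*Pnpla2*, 2.04, *Retn*, 1.56, and *Fabp4*, 1.21), while 0 of 10 lymphoid, 0 of 10 endothelial and stromal, 0 of 2 neuronal, and 0 of 1 gut genes passed. In WT saline, *S100a8* (0.102 and 0.264 RPKM as deposited) and *Retn* (0.223 and 0.278) were under the filter's minimum. They passed the filter only through the FAEE-SAP libraries, so only a rise could be called for either gene. Between genotypes after FAEE-SAP, 2 of 8 myeloid genes were lower in cKO (*Cd14*, −2.37, and *S100a8*, −2.32), where 0.409% of all genes were, and 0 genes of the duct, adipocyte, lymphoid, endothelial, neuronal, and gut lists passed. On the scaled values no gene of these lists passed in the other comparisons, and as deposited 1 of 9 duct and 2 of 8 myeloid genes were called lower in the interaction, where 6.92% of all genes were. As deposited, where 65.9% of all genes were called higher in WT, 5 duct, 7 myeloid, 6 adipocyte, 3 lymphoid, 6 endothelial and stromal, 2 neuronal, and 0 gut genes were. Between genotypes after FAEE-SAP, where 39.6% of all genes were called lower as deposited, 3 duct, 3 myeloid, 3 adipocyte, 2 lymphoid, 0 endothelial and stromal, 2 neuronal, and 1 gut genes were. When each library was left out in turn, *Epcam*, *S100a9*, and *Cd14* were called in WT each time, *Spp1*, *Pnpla2*, and *Fabp4* in 1 of 4 fits, and *Retn* in 0 of the 2 that tested it. The part of these cell types in the islet values was not tested.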

How the data were processed

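Members and lists were chosen with earlier results of these data known. RNA was extracted with Trizol and made into libraries with a directional kit. The authors filtered paired reads with fastp, mapped them to GRCm38.p6 with CLC Genomics Workbench, and deposited RPKM per gene and library; how genes were counted is not given in the sources used here. Of 48709 genes, 95.1% matched GENCODE vM21, which gave positions and exonic lengths. Depth (22.9 to 37.8 M reads) was derived from low values, of which 84.1% to 85.5% were whole reads within 0.1.

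RPKM was divided by median-of-ratios factors within each fit. Genes with RPKM of at least 0.5 in at least 2 libraries were tested on log2(RPKM + 0.1) with limma 3.58.1 (intensity trend, Benjamini-Hochberg) in R 4.3.3, so the fold of a low gene is understated. Called genes had an adjusted p under 0.05 and a 2-fold difference. Levels quoted per library were scaled over all 8. Pairwise fits used 4 libraries and the interaction used 8. The labels name 2 biological replicates per group. Ratios to *Ins2* used exact two-sided permutation tests (12 tests, scipy 1.17.1). Named genes were the members, up to 3 called genes per list and direction, and the 10 most alike genes. A few others (*Cpe*, *Pdx1*, *Pfkfb3*, *Ghrl*, and gut genes) were added as background after their values were seen. Each pairwise fit was tested on simulated data, and the interaction fit was not. Alternatives were scaling, filter, pseudocount, trend, samples in the fit, replicate block, fold minimum, denominator, and leaving out libraries. *Mln* and *Itgam* from the lists were not analysed here, and some named genes are not reported here.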

Additional observations from a re-analysis of the deposited data

Results flagged for a closer look

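The scaled values of 4 of the 10 members differed from saline in opposite directions after FAEE-SAP in the 2 genotypes, with both libraries of each group on one side: lower than saline in WT and higher than saline in cKO. Of 11133 genes, 2.36% had this pattern and 3.31% the opposite one. They were *Ins2* (cKO response minus WT response 1.06 on the log2 scale), *Gcg* (1.36), *Iapp* (1.41), and *Chga* (1.04). None passed the interaction test of limma after Benjamini-Hochberg adjustment (adjusted p = 0.267, 0.143, 0.175, and 0.280). As deposited, all 4 were higher after FAEE-SAP in both genotypes, and the interaction values were 0.39, 0.70, 0.75, and 0.38.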

How the results depend on the processing

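The 2 libraries per group limit every call, and *Slc30a8* rested on 6 to 41 reads. With RPKM as deposited, the members' median reversed to 0.86 for FAEE-SAP against saline in WT and to −0.013 for cKO against WT after FAEE-SAP, and it moved to 1.04 in cKO and to 0.54 in the interaction; in WT, 6 of the 9 members tested had the other sign: *Gcg* (0.31), *Iapp* (0.45), *Ins2* (0.57), *Ins1* (0.97), *Chga* (0.86), and *Chgb* (1.09). Members called in WT were then 3, all higher, in place of 2 lower. This scale carries the shift of all genes. Members called in WT (2) went to 1 with the trimmed mean, a pseudocount of 1, no intensity trend, or all 8 libraries in 1 model, and to 0 with no filter. Members called between genotypes after FAEE-SAP (3) went to 1 as deposited (*Ppy*, lower) or with no intensity trend, and to 0 with no filter. The cause was not tested. Leaving out each library in turn gave 0 to 1 members called in WT, 0 to 2 between genotypes after FAEE-SAP, and a members' median of −0.25 to 0.30 between genotypes after saline; a group left with 1 library was assumed to vary like the other.

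With the replicate number as a block, 0 members were called in WT (442 genes in place of 755), 4 between genotypes after FAEE-SAP, with *Ins2* added (568 genes in place of 140), 0 in cKO (52 genes in place of 5), 0 after saline, and 0 in the interaction (0 genes in place of 8). Deviations of same-numbered libraries correlated at −0.175 (WT), 0.450 (cKO), −0.395 (saline), and 0.313 (FAEE-SAP), and no label pairs the mice. With the numbers crossed, chosen after seeing the data, 2 members and 822 genes were called in WT and 0 after saline. Over all alternatives, of the values that answer a comparison 261 kept their side of the threshold, stayed within 1.5 times (counts, whatever their direction), or moved within the replicate spread, 19 moved further, and 2 reversed. Of the values of single genes or counts of all genes, 682 did so, 34 lost the call, 6 gained it, 35 moved further, and 2 reversed. The count of reversed values does not hold every change of sign, since the 6 members named above had the other sign in WT as deposited. None of the 12 ratios to *Ins2* changed its direction or side under any alternative, except where leaving out 1 library gave *Gcg* or *Iapp* by treatment the other sign. With 1 library left out, the smallest exact permutation p of 4 against 3 libraries is 0.0571, so no ratio could pass there.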
